A study of Mus musculus with 6 samples.

Results

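The genes described here are 9 transcription factors that set the identity of the intestinal epithelium and its position along the gut: Cdx1, Cdx2, Gata4, Gata5, Gata6, Hnf4a, Hnf4g, Pdx1 and Onecut2. They were chosen by symbol, all 9 were found among the 33017 genes of the deposited count table, and all 9 were among the 15904 genes with enough counts to be tested. The samples were mouse small intestine, frozen in liquid nitrogen, whose messenger RNA was captured on poly-T beads and sequenced. The 6 libraries form 2 groups of 3, control 1 to 3 and model 1 to 3. The series title names simulated microgravity with radiation and a protective compound, and its design text speaks of the effect of 2 factors together, so the question of the comparison was which transcripts differ between model and control tissue. The labels do not state which agent, dose or time the model group received, the strain, sex or age of the mice, whether libraries of a group came from different mice, or which stretch of the small intestine each sample was cut from. Spread between libraries of a group, on which every p-value rests, may therefore be technical.

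The epithelium of the small intestine keeps its identity through a small network of transcription factors. CDX1 and CDX2 are caudal-type homeodomain proteins that separate intestine from stomach, and HNF4A and HNF4G are nuclear receptors that bind together with them at the genes of absorptive cells. A second layer marks position: GATA4 is made in the duodenum and jejunum and not in the distal ileum, where its absence is tied to the bile acid uptake programme, while GATA6 is made along the whole small intestine. PDX1, best known from the pancreas, is highest in the duodenum, and ONECUT2 is a cut-homeodomain factor of the proximal small intestine.

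Pdx1 and Cdx2 are neighbours among the protein-coding genes of 1 chromosome, and their transcripts behaved very differently in 1 of the 6 libraries, so a stretch of both promoters is shown. Of the 9 genes, 4 had a promoter in the RefSeq promoter table (build GRCm38.p6): Cdx2, Gata5, Hnf4a and Pdx1. The lines below give the 100 bases before the most upstream annotated start, on the gene's own strand, for Pdx1 at chr5:147269859-147269958 on the + strand and for Cdx2 at chr5:147307271-147307370 on the - strand. The capitals mark a CCAAT box, read as CCAAT on either strand.
Pdx1: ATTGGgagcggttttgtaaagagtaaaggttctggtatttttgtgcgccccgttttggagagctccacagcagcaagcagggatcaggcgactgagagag
Cdx2: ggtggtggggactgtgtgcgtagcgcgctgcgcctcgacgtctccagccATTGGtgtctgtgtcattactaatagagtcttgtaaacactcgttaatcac
Each window held 1 CCAAT box, a motif found in 18.9% of 32851 promoter windows of the same length and searched after the 2 windows had been seen. The GATA letters AGATAA, the CDX letters TTTATNG, the HNF4 letters CAAAGTCCA and the homeodomain letters TAATTA, each read on both strands, had 0 matches in either window. They occurred in 3.59%, 3.96%, 0.17% and 1.61% of all windows in the same order. All these shares, that of the CCAAT box included, come from windows at a fixed place in each promoter. Those windows were not moved to the most upstream start as the 2 shown were, so the shares are a rough guide. The motifs do not overlap, and a missing match says only that these letters are not in these 100 bases.

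Library totals lay between 35007515 and 45285564 counts. Levels are CPM, read counts scaled to library totals after TMM normalisation, and each is the value of 1 library unless a mean ± SD with n = 3 is given. General epithelial markers differed little: the mean log2 CPM of 8 of them (Epcam, Cdh1, Krt8, Krt19, Cldn7, Vil1, Esrp1 and St14) was between 9.55 and 9.99 in all 6 libraries, with 9.88 in control 3. In whole tissue, fewer cells of a type and less RNA per cell cannot be told apart.

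Levels of different genes were compared per kilobase of exon (union of the exons in GENCODE M21, an annotation of GRCm38 rather than of the authors' build). Over the 5 libraries other than control 3, the median level per kilobase was highest for Hnf4g at 284 CPM per kb, followed by Hnf4a at 166, Cdx1 at 67.0, Cdx2 at 64.5, Gata4 at 60.0, Pdx1 at 31.7, Gata6 at 23.7, Onecut2 at 18.9 and Gata5 at 15.4 CPM per kb. The ranges of Hnf4g (254 to 424 CPM per kb) and Hnf4a (145 to 216 CPM per kb) did not overlap over these 5 libraries. That gap rests on the exon lengths used, 2.63 kb for Hnf4g and 4.83 kb for Hnf4a. By CPM, not divided by length, Hnf4a was above Hnf4g in control 1, control 2 and model 2. In control 3 Hnf4a was above Hnf4g per kilobase too, at 173 against 141 CPM per kb. Cdx1, Cdx2 and Gata4 shared a band, with ranges of 57.0 to 96.8, 42.4 to 70.5 and 54.8 to 65.3 CPM per kb, and their order was within the spread between libraries. The same holds for Pdx1 against Gata6 (15.5 to 42.4 and 21.8 to 32.3 CPM per kb) and for Onecut2 against Gata5 (12.5 to 20.4 and 11.6 to 19.2 CPM per kb).

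**Figure D1:**
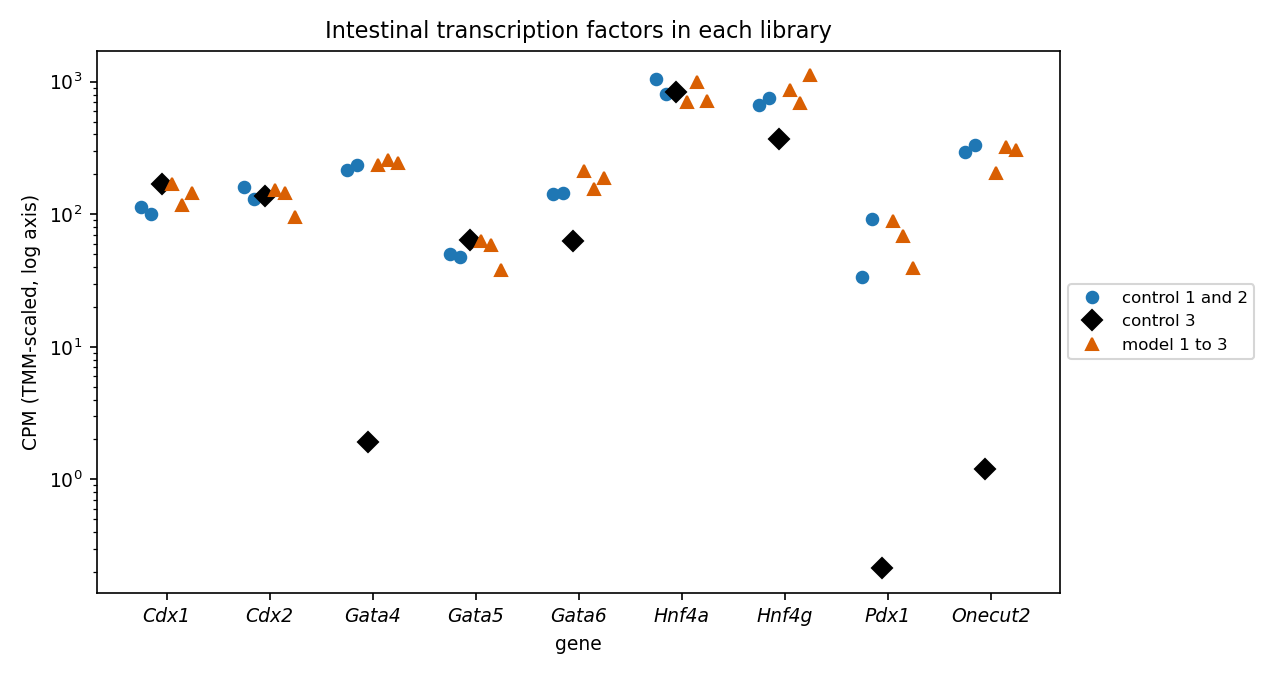
CPM of each transcription factor in each library on a log axis, with control 1 and 2 as circles, control 3 as a diamond and the model libraries as triangles. Gata4, Pdx1 and Onecut2 in control 3 lie at 1.90, 0.214 and 1.19 CPM, below their other 5 libraries, while Cdx1, Cdx2 and Hnf4a in control 3 lie within the range of the others.

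Of the factors that mark position, Gata4 measured 214, 234 and 1.90 CPM in control 1, 2 and 3 and 233, 255 and 245 CPM in model 1, 2 and 3. The other 5 libraries were thus within 1.19-fold of each other and control 3 was far below them, with 80 reads in place of 6745 to 11248. The median of the other 5 was 123 times the level in control 3, whose 95% Poisson interval of 1.51 to 2.36 CPM covers counting error only.

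Onecut2 had the same shape. It measured 293, 331 and 1.19 CPM in the control libraries and 203, 323 and 306 CPM in the model libraries. Control 3 held 50 reads (95% Poisson interval 0.881 to 1.57 CPM), and the median of the other 5 was 258 times its level. Model 1 was the lowest of the others.

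Pdx1 was lowest in control 3 as well, and unlike Gata4 it also varied among the other libraries. It measured 33.4, 91.5 and 0.214 CPM in control 1, 2 and 3 and 88.5, 68.5 and 39.2 CPM in model 1, 2 and 3. Control 3 held 9 reads (95% Poisson interval 0.0977 to 0.406 CPM), and the median of the other 5 was 321 times its level. Among these 5 the highest was 2.74 times the lowest, the widest such spread of the 9 genes, with control 2, model 1 and model 2 above control 1 and model 3. Plut, a noncoding RNA gene at the Pdx1 locus, followed it, with 27.6, 71.0 and 0.950 CPM in control and 61.3, 60.4 and 33.3 CPM in model tissue. The strand setting of the counts is not given in the sources used here, so reads of overlapping genes cannot be told apart.

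Gata6 and Hnf4g were lower in control 3 by about 2-fold. Gata6, the GATA factor of the whole small intestine, measured 142, 144 and 63.2 CPM in control and 210, 154 and 188 CPM in model tissue, and the median of the other 5 was 2.44 times control 3. Hnf4g measured 668, 748 and 371 CPM in control and 868, 686 and 1116 CPM in model tissue, with a median of the other 5 at 2.02 times control 3. For both genes control 3 was below each of the other libraries. Gata6os, a noncoding neighbour that may share reads with Gata6, had 70.3, 58.9 and 29.9 CPM in control and 107, 56.5 and 114 CPM in model tissue.

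The other 4 factors were not below the rest in control 3. Cdx2 measured 159, 131 and 137 CPM in control and 152, 146 and 95.8 CPM in model tissue, with model 3 as the lowest library. Its relative Cdx1 measured 114, 99.8 and 169 CPM in control and 169, 117 and 145 CPM in model tissue. Hnf4a measured 1043, 803 and 835 CPM in control and 700, 993 and 720 CPM in model tissue, and control 3 was in the middle of the range. Gata5, the lowest of Gata4, Gata5 and Gata6 in each library but control 3, measured 50.6, 47.4 and 64.1 CPM in control tissue. In model tissue it measured 62.9, 58.8 and 38.1 CPM, so that control 3 was the highest library by a small margin over model 1. Of the neighbouring pair whose promoters are shown above, Pdx1 was nearly missing from control 3 and Cdx2 was within its usual range.

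Control 3 was thus below all other libraries for 5 of the 9 factors, above all of them for 1 and within their range for 3. Over all 15904 genes tested, control 3 was below the other 5 for 26.8% and above them for 27.5%. It was at least 2-fold below the lowest other library for 4 of the 9 (Gata4, Gata6, Pdx1 and Onecut2), against 4.3% of all genes, at least 2-fold above the highest other library for 0 of the 9, against 3.02%, and at least 16-fold below for 3 of the 9 (Gata4, Pdx1 and Onecut2), against 0.509%. The larger threshold was set after the values were seen. Control 3 is 1 library that was singled out with its values known, so these are descriptions with no test. With the epithelial markers of the same library subtracted, control 3 differed from the median of the other 5 by a log2 value of -7.02 for Gata4, -8.28 for Pdx1, -8.17 for Onecut2, -1.56 for Gata6 and -1.12 for Hnf4g. The same differences were 0.25 for Cdx1, -0.05 for Cdx2, 0.20 for Gata5 and -0.12 for Hnf4a.

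Genes known for their place along the small intestine moved with these factors in control 3. Of 10 tested duodenal and jejunal genes, 9 were at least 2-fold below the lowest other library, and the summed level of the list was 486 CPM in control 3 against 5479 to 10150 CPM elsewhere. Its most abundant members were Ada, the adenosine deaminase that is high in duodenum, at 234 CPM in control 3 against 1295 to 3283 CPM, and the apolipoprotein gene Apoa4, at 12.6 CPM against 945 to 2511 CPM. Chosen after their values were seen, the lactase gene Lct was at 0.997 CPM against 610 to 2255 CPM, and the fatty acid binding protein gene Fabp1 at 0.926 CPM against 822 to 1520 CPM. The exception was the iron exporter gene Slc40a1, at 224 CPM in control 3 and 169 CPM in control 1. S100g is listed at 0 in all 6 libraries.

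Ileal genes were placed the other way. Of 8 tested ileal genes, 7 were higher in control 3 than in every other library, 6 of them at least 2-fold, and the summed level of all 10 listed genes was 2806 CPM in control 3 against 171 to 385 CPM elsewhere. Fabp6, the ileal bile acid binding protein gene, measured 1166 CPM in control 3 and at most 0.285 CPM in the others, and did not pass the filter on low counts because nearly all of its reads are in 1 library. Slc51a, a subunit of the bile acid exporter, measured 363 CPM against 85.5 to 218 CPM, and the bile acid importer gene Slc10a2, named after its values were seen, 648 CPM against 1.11 to 4.60 CPM. Amn was within the range of the others. The part of a difference in sampled segment in the values of Gata4, Pdx1 and Onecut2 was not tested.

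**Figure D2:**
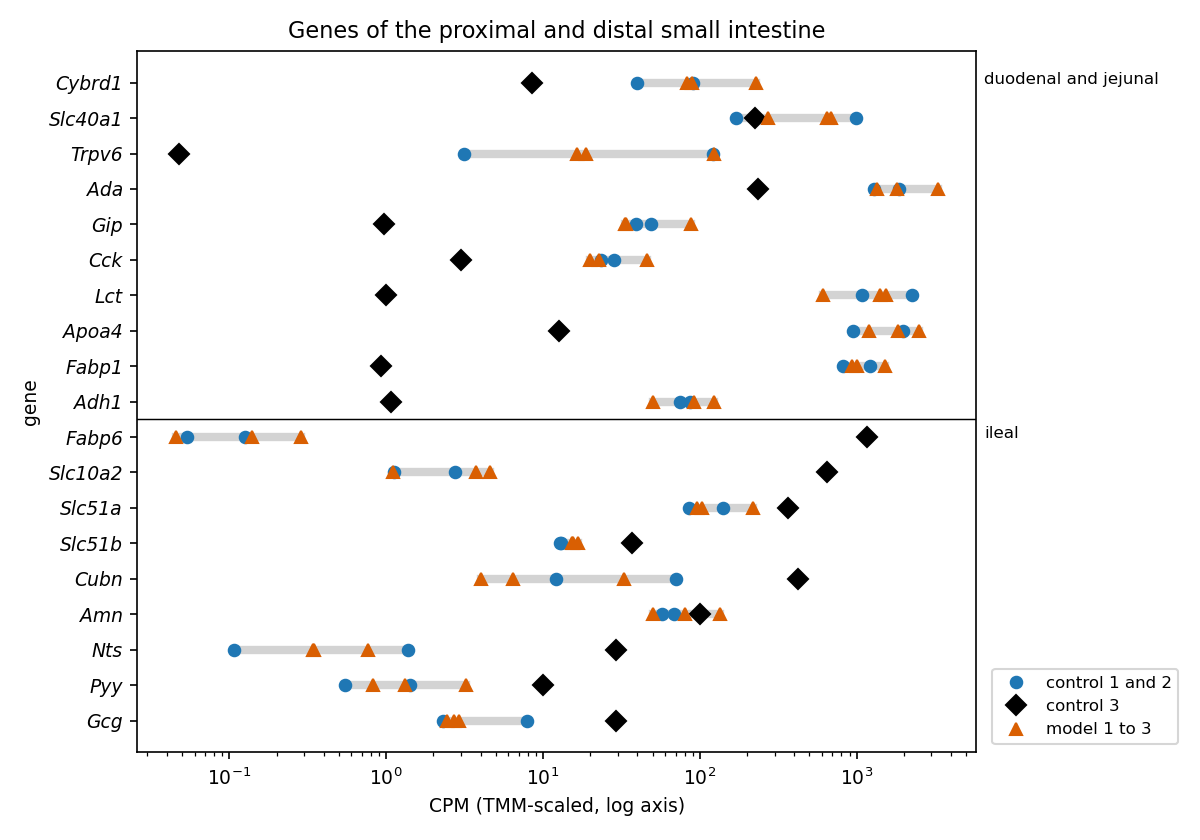
CPM of duodenal and jejunal genes (upper rows) and ileal genes (lower rows) on a log axis, with grey bars over the range of the 5 libraries other than control 3 (diamonds). Lct in control 3 is at 0.997 CPM and Slc10a2 at 648 CPM, and genes with a 0 in any library are not drawn.

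Other cell types were checked in the same way. B cell markers, led by Ighd and Cd22, summed to 260 CPM in control 3 and 162 CPM in model 3 against 12.8 to 39.0 CPM in the other 4 libraries, with 6 of 6 tested markers highest in control 3 and Ms4a1 listed at 0. Model 3 had Gata4 at 245 CPM and Onecut2 at 306 CPM, among the libraries with full levels. Its Pdx1 was at 39.2 CPM, near the low end of the 33.4 to 91.5 CPM of the libraries other than control 3. Smooth muscle markers, led by Myh11 and Acta2, summed to 2044 CPM in control 3 against 910 to 1829 CPM, with 5 of 7 highest there. Mesothelial markers summed to 1586 CPM against 921 to 1700 CPM, a sum that is mostly Krt19, which epithelium also makes. Of the 6 mesothelial markers 4 were highest in control 3, 3 of them at least 2-fold: Upk3b was at 10.3 CPM against at most 2.77, Lrrn4 at 3.78 against at most 1.23 and Wt1 at 2.19 against at most 0.882 CPM, while Upk1b was at 8.86 CPM against at most 6.96 CPM. Enteroendocrine markers, of which Gip and Cck are also in the duodenal and jejunal list, summed to 73.1 CPM in control 3 against 167 to 297 CPM, and 5 of 8 tested were lowest there. Their most abundant members were the granin gene Chgb, at 29.6 CPM in control 3 against at least 61.4 CPM, and the incretin gene Gip, at 0.974 CPM against at least 33.2 CPM. Large intestine genes were higher in control 3 for 3 of 4 tested, with Car4 at 156 CPM against 18.3 to 63.6 CPM and Muc3a at 81.2 CPM against 24.0 to 39.7 CPM. The exception was the water channel gene Aqp8, at 0.0950 CPM in control 3 against 12.1 to 68.2 CPM, and the homeobox genes Hoxa13, Hoxd11, Hoxd12 and Hoxd13 are listed at 0 in all libraries. Beyond the measurements given, the part of these cells in the factors' values was not tested.

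Among the 5 other libraries, Pdx1 had nearly the order of a list of stomach genes, of which Tff2 and Muc6 are also made in duodenal glands. Some duodenal and jejunal genes, named after their values were seen, shared this. Trpv6 measured 122 CPM in model 1, 121 in control 2, 18.7 in model 2, 16.4 in model 3 and 3.13 CPM in control 1. Slc40a1 measured 687, 993, 647, 272 and 169 CPM in the same libraries. Cybrd1 was also lowest in control 1 among these 5, and the other tested genes of that list were not. The likeness was not tested. The stomach list summed to 792 CPM in model 1, 167 in control 2, 97.2 in model 2, 23.5 in model 3, 7.30 in control 1 and 1.04 CPM in control 3, nearly the order of Pdx1, in which control 2 and model 1 are the upper pair, followed by model 2, model 3, control 1 and control 3. Its most abundant members were the trefoil peptide gene Tff2, at 423 CPM in model 1 and 64.7 CPM in control 2 against 0.0834 CPM in control 1, and the gland mucin gene Muc6, at 164, 61.1 and 0.334 CPM in the same libraries. Sox2, which marks stomach epithelium, is listed at 0 in all libraries, and Gkn1 and Gkn2 were at most 0.208 CPM. The pancreas, where Pdx1 is also made, showed in 1 library: its 14 markers summed to 8000 CPM in model 3, led by Ctrb1 at 1893 CPM and Cela1 at 1055 CPM, and to 6.32 to 33.3 CPM elsewhere. Pdx1 in model 3 was at 39.2 CPM, the third lowest value.

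Between model and control, none of the 9 factors passed the test. The question here was whether the factors that hold intestinal identity differ between model and control tissue. By edgeR's quasi-likelihood test with Benjamini-Hochberg adjustment over all genes, 0 of 9 were called, against 0.0% of all 15904 genes, and the adjusted p of the 9 lay between 0.851 and 0.987. At an unadjusted p under 0.05 the count was 0 of 9, against 4.81% of all genes, and DESeq2 and limma-voom also called 0 of the 9, with DESeq2 calling 0.157% of all genes. The median log2 fold change of the 9 was 0.41, with 6 higher and 3 lower in model tissue, where the median of all genes was -0.02. Without control 3 the median of the 9 was 0.14, and again 0 of 9 were called and 0 had an unadjusted p under 0.05, against 2.34% of all genes.

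Gata6 came closest. It measured 116 ± 46.1 CPM (SD, n = 3) in control and 184 ± 28.5 CPM (SD, n = 3) in model tissue. The log2 fold change was 0.66 (SE 0.34), with an edgeR adjusted p of 0.851. It was the only one of the 9 whose groups did not overlap, as was the case for 11.1% of all genes, and without control 3 the log2 fold change was 0.38 (SE 0.23). Hnf4g measured 596 ± 199 CPM (SD, n = 3) and 890 ± 216 CPM (SD, n = 3), with a log2 fold change of 0.58 (SE 0.35) that was 0.34 (SE 0.29) without control 3. Model 2 was among the control values for Hnf4g.

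For the 3 factors that were nearly missing from control 3 the control mean has little meaning. Gata4 measured 150 ± 129 CPM (SD, n = 3) in control and 245 ± 10.8 CPM (SD, n = 3) in model tissue. Its log2 fold change was 0.71 (SE 1.23) with all libraries and 0.14 (SE 0.21) without control 3. That of Pdx1 was 0.65 (SE 1.39) and 0.09 (SE 0.49), and that of Onecut2 was 0.41 (SE 1.37) and turned to -0.16 (SE 0.27). With limma-voom, which averages log values, the log2 fold changes with all libraries were 2.42 (SE 1.77), 2.83 (SE 1.80) and 2.47 (SE 2.08) for Gata4, Pdx1 and Onecut2. The replicates of the control group were thus further apart than the groups for each of the 3.

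For Cdx1, Cdx2, Hnf4a and Gata5 the difference between the groups was smaller than its SE. The log2 fold change was 0.17 (SE 0.26) for Cdx1, -0.12 (SE 0.23) for Cdx2, -0.15 (SE 0.27) for Hnf4a and -0.02 (SE 0.25) for Gata5. Without control 3 they were 0.44 (SE 0.24), -0.13 (SE 0.27), -0.18 (SE 0.28) and 0.14 (SE 0.27), and the groups of Cdx1 then no longer overlapped. That was so for 2 of the 9, Cdx1 and Gata6, against 16.5% of all genes. The value for Cdx1 was -0.07 when libraries were scaled by size alone, a scaling that moved the median of all genes to -0.21.

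**Figure D3:**
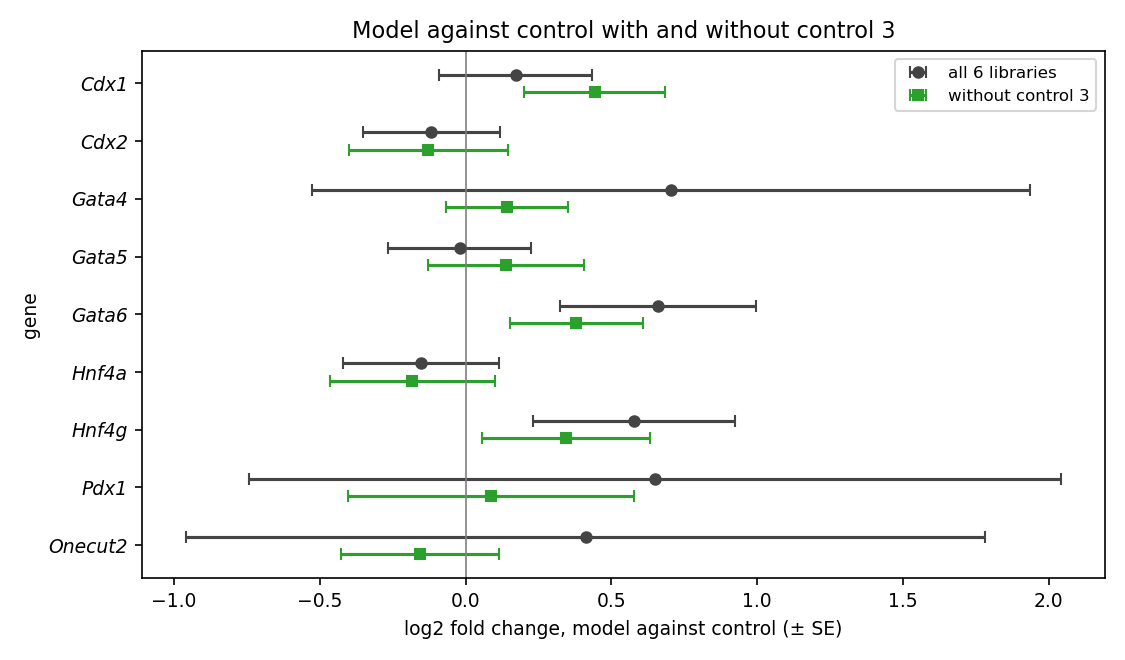
Log2 fold change of model against control with its SE for each factor, with all 6 libraries (circles) and without control 3 (squares). The bars of Gata4, Pdx1 and Onecut2 span over 2 log2 units with control 3, with an SE of 1.23 to 1.39, and shrink to an SE of 0.21 to 0.49 without it.

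Relative to the epithelial markers of the same library, the difference between the groups was largest in size where control 3 was low. It was 2.49 for Gata4, 2.82 for Pdx1 and 2.54 for Onecut2 on the log2 scale, and 0.17, 0.20 and -0.16 without control 3. For Gata6 it was 0.83, with higher values in 3 of 3 model libraries and an exact permutation p of 0.1, the smallest that 3 against 3 libraries allow, and an adjusted p of 0.675 over the 9 genes by this exact test. Without control 3 it was 0.39, and that of Hnf4g was 0.34 in place of 0.70. The remaining 4 factors had differences between -0.08 and 0.27.

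Ratios between related factors do not depend on how libraries are scaled. The log2 ratio of Gata4 to Gata6 was between 0.15 and 0.73 in 5 libraries and -5.02 in control 3, so that Gata4 was the lesser of the pair in read counts only there. Hnf4a to Hnf4g had log2 ratios of 0.64, 0.10 and 1.17 in control and -0.31, 0.53 and -0.63 in model tissue. Control 3 had the highest ratio, and model 1 and model 3, in which Hnf4a was lowest and Hnf4g highest, were the libraries below 0. The group difference of -0.77 had an exact two-sided permutation p of 0.2 and an adjusted p of 0.533 over 4 ratios. It was -0.51 without control 3, and -1.11 to -0.51 with each of the 6 libraries left out in turn. Cdx1 to Cdx2 had log2 ratios of -0.48, -0.40 and 0.31 in control and 0.15, -0.31 and 0.59 in model tissue, with a difference of 0.33 and overlapping groups (exact permutation p of 0.4). That difference was 0.58 without control 3, 0.56 without model 2, 0.19 without control 1 and 0.11 without model 3. For Pdx1 to Cdx2 the log2 ratio was -9.01 in control 3 and -2.26 to -0.52 elsewhere (exact permutation p of 0.4), and for Gata4 to Gata6 the exact permutation p was 0.8.

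**Figure D4:**
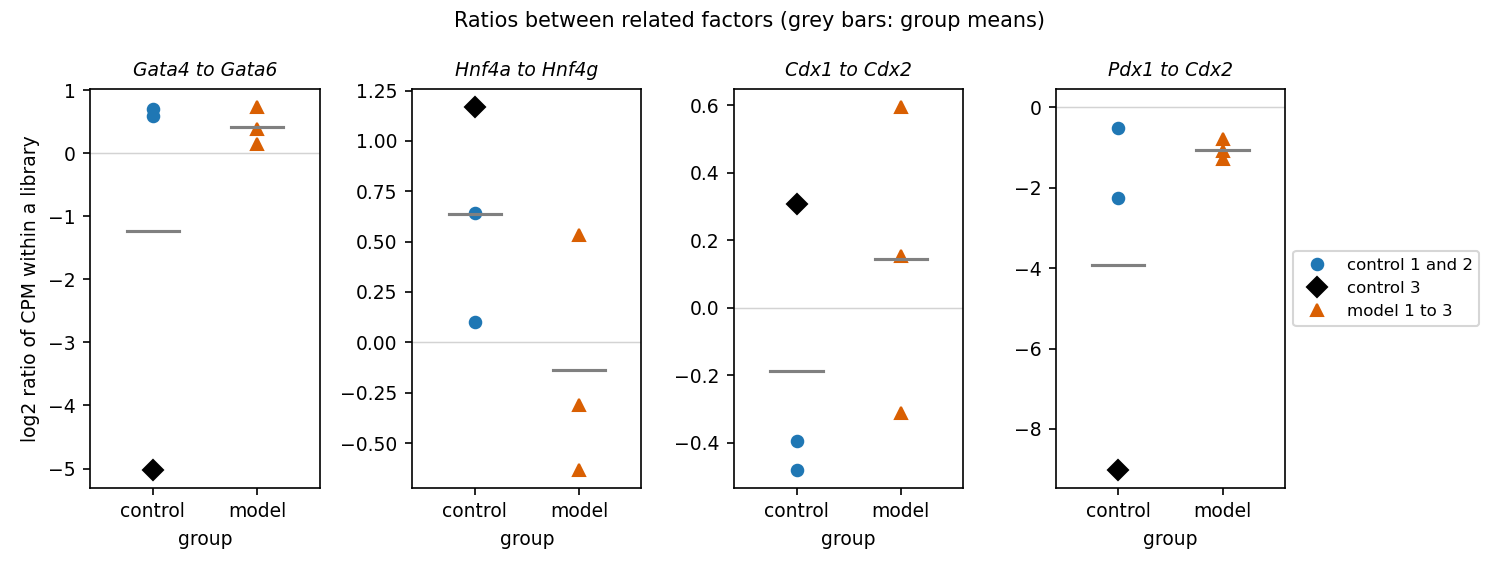
Log2 ratio of CPM within each library for 4 pairs of related factors, by group, with grey bars for group means. Control 3 (diamond) is at -5.02 for Gata4 to Gata6 and -9.01 for Pdx1 to Cdx2, while the Hnf4a and Cdx pairs spread over less than 2 log2 units.

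Relatives and partners of the 9 factors were measured from a list of 8. Zfpm1, which encodes the GATA cofactor FOG1, measured 187, 182 and 12.8 CPM in control and 208, 209 and 177 CPM in model tissue, and so had the shape of Gata4 with a smaller gap. Its relative Zfpm2 was at 3.25 CPM in control 3 and 1.03 to 2.25 CPM elsewhere, with lower values in 3 of 3 model libraries and an edgeR adjusted p of 0.852. Gata2, Gata3 and Onecut3 were each at most 2.05 CPM, Gata1 was too low to be tested, and Cdx4 and Onecut1 are listed at 0 in all libraries. Of the 5 tested, 0 were called.

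Of 22 other transcription factors of the epithelium that were tested, 0 were called between the groups, with a median log2 fold change of 0.03 that was 0.22 without control 3. In control 3, 4 were below every other library, 6 above and 12 within. The most abundant were the vitamin D receptor gene Vdr, at 356 CPM in control 3 and 733 to 1397 CPM elsewhere, and Klf5, a factor of the crypt, at 407 CPM in control 3 within a range of 357 to 438 CPM. Named after their values were seen, Creb3l3, which activates apolipoprotein genes, was at 26.8 CPM against 322 to 776 CPM, and the bile acid receptor gene Nr1h4 at 307 CPM against 71.9 to 103 CPM. Foxa1, a forkhead factor of gut endoderm also named after its values were seen, was at 35.2 CPM against 7.10 to 10.9 CPM. Isx and Klf4 were within the range of the others. Elf3 and Neurog3 are listed at 0 in all libraries.

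**Figure D5:**
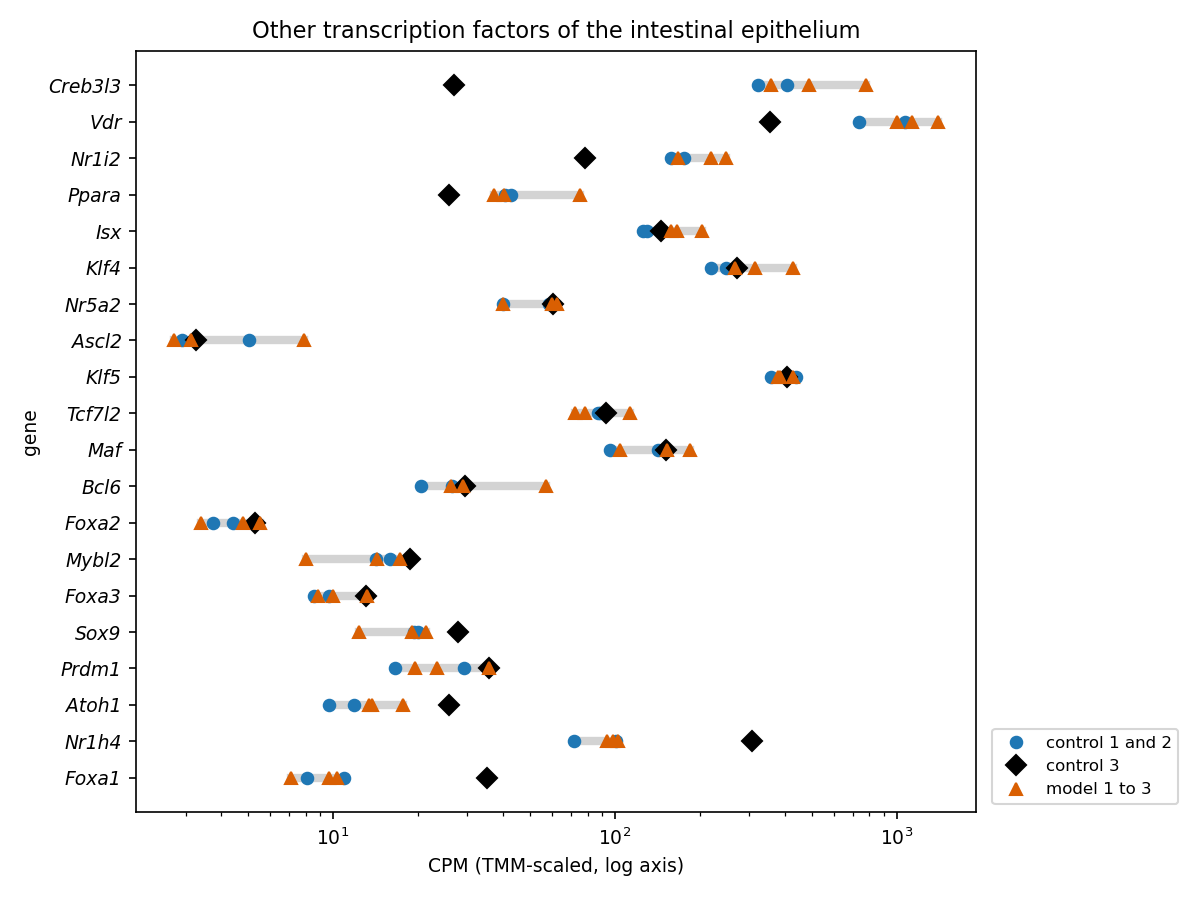
CPM of 20 other intestinal transcription factors on a log axis, ordered from the lowest to the highest level of control 3 (diamonds) relative to the other 5 libraries, whose range is the grey bar. Creb3l3 at 26.8 CPM and Nr1h4 at 307 CPM lie near the ends of the order, and 10 of the 20 drawn have control 3 within the bar.

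Enterocyte genes known as targets of CDX2, HNF4 or GATA4 had 15 of 18 tested members lowest in control 3, 8 of them at least 2-fold, while Anpep and Mep1a were highest there. The most abundant were Apoa1, at 2120 CPM in control 3 and 4460 to 13700 CPM elsewhere, and Apob, at 3364 CPM and 4696 to 8959 CPM. The cadherin gene Cdh17, a known CDX2 target, differed less, at 1299 CPM against 1512 to 1805 CPM, and the sucrase gene Sis measured 1255 CPM against 1785 to 3743 CPM. Both were named after their values were seen. Between the groups 16 of 18 had a positive log2 fold change, with a median of 0.54, and 0 were called. These signs include the low values of control 3: without it 13 of 18 were positive, with a median of 0.30, and 0 were called. Lct, Apoa4 and Fabp1 are also members of the duodenal and jejunal list, and Vil1 of the epithelial markers.

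The genes most like each factor over the 6 libraries were taken by Pearson correlation of log2 CPM, as a description. For Gata4 they were Heatr9, Zfpm1 and Fzd4, each with r of 0.998, but the values over the 5 libraries other than control 3 were 0.18, 0.26 and 0.75. For Onecut2 they were Atp7b, Prdm16 and Gata4 itself, each with r of 0.997, and the values without control 3 were 0.50, 0.76 and 0.23. The likeness of Gata4 and Onecut2 to each other rests on control 3. For Pdx1 they were Plut, Mul1 and Ogdh, and Plut kept an r of 0.98 without control 3. Gata6 was most like Cdr2, Asb13 and Gimd1, with r of 0.998 to 0.999 and of 0.990 to 0.997 without control 3, and Hnf4g most like Arhgdig, Capn12 and Pitpnm1. For factors that were not low in control 3 the genes were Pi4k2a, BC039771 and Fam43a for Cdx1, Nmt1, Eif3j2 and Misp for Cdx2, Tceal3, Foxa2 and Tmed9 for Gata5, and Chaf1b, Rbm6-ps2 and Ntpcr for Hnf4a, with r between 0.970 and 0.992. The best of 15904 genes over 6 points is high for any gene, and the libraries share depth and tissue composition.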

How the data were processed

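The values deposited are raw read counts, 1 table with a row for each gene symbol and a column for each library. FastQC, Trimmomatic, STAR, featureCounts and build GRCm39 are named, without versions, per the submitters' processing notes. Annotation, strand setting and multi-mapping rule are not stated there. Columns were matched to samples by library name, and 0 were unmatched. After filterByExpr and TMM scaling, groups were compared by edgeR's quasi-likelihood test (edgeR 4.0.16, R 4.3.3) with group as its single term, robust dispersion and a Benjamini-Hochberg threshold of 0.05 over all genes. An SE is the size of the log2 fold change over the root of its F statistic. Log2 values for ratios use a prior count of 2. No 2 libraries of a group were duplicates, with a chi-square of their counts of at least 114.1 per degree of freedom. The 9 factors, the lists of genes and the comparison of control 3 were chosen with earlier results of these data known. Some list members are not reported here. Named are all 9 factors, the 2 most abundant members of each list that the text describes, called list members (0) and the 3 genes most like each factor, and other names are list exceptions, genes listed at 0, or genes picked after viewing values. Alternatives were other scalings and filters, DESeq2 1.42.0, limma-voom (limma 3.58.1), a non-robust dispersion, each library left out, and a block for the replicate number.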

Additional observations from a re-analysis of the deposited data

How the results depend on the processing

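Under 15 alternatives 0 of the 9 factors were called. The number of genes called over the whole table was 0 in each edgeR and limma-voom fit and 25 with DESeq2. Log2 fold changes near 0 changed sign: Cdx1 was -0.065 with library size alone, Gata5 was 0.018 with RLE scaling and 0.018 with DESeq2. With 1 library left out in turn, the range was -0.24 to 0.070 for Cdx2 (positive without model 3), -0.16 to 0.18 for Gata5 (positive without control 3 or model 3) and -0.16 to 0.93 for Onecut2 (negative without control 3). The difference in the ratio of Gata4 to Gata6 ranged from -0.23 (without control 3) to 2.63. Relative to epithelial markers, the ranges that crossed 0 were -0.21 to 0.070 for Cdx2, -0.10 to 0.18 for Gata5, -0.30 to 0.15 for Hnf4a and -0.16 to 3.93 for Onecut2, and Gata5 was -0.059 against Epcam alone. The cause of these changes was not tested beyond the library left out. Scaled by library size alone, control 3 differed from the others by 0.28 for Cdx2 in place of -0.09 and by -6.69 for Gata4 in place of -6.91. Deviations from the group mean had correlations of -0.15, -0.27 and 0.31 between libraries with the same replicate number. Between libraries with different numbers they ran from -0.345 to 0.482. With 3 libraries in a group these values cannot show whether the number marks a pairing. With the replicate number as a block 0 genes were called, and the log2 fold change was 0.74 for Gata6, 1.61 for Gata4, 2.06 for Pdx1 and 1.27 for Onecut2. The smallest count of a factor was 9 in control 3 and 1337 elsewhere.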

Other observations

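Genes as abundant as these factors were rarely almost missing from 1 library, and most such cases were in control 3, Gata4, Pdx1 and Onecut2 among them. Among genes whose median over the other 5 libraries was at least that of Gata5, 38 of 4112 (0.924%) were at least 16-fold below the lowest other library in control 3. The same count, taken for each other library in turn, was 1 of 4084 in model 1 and 0 in control 1, control 2, model 2 and model 3. With genes of any level included, model 1 had more such genes than control 3, with 170 (1.07%) against 81 (0.509%) of 15904. These counts were made after the values of control 3 were seen.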
